A study of Mus musculus with 21 samples.

Results

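The 9 transcription factor genes of endothelial identity followed in whole mouse liver after loss of Gata4 in the sinusoidal endothelium were Maf, Tfec, Meis2, Erg, Fli1, Ets1, Sox7, Sox17 and Sox18. They were chosen by name, as factors of sinusoidal and of continuous vessels, with earlier results of these data known. Each of the 9 had a row of its own among the 25428 gene rows measured, of which 24705 carried 1 gene symbol. In knockout livers Sox18 and Fli1 were higher and Maf was lower, and the other 6 did not pass the test. The call of Fli1 was lost in 9 of the 21 fits that left out 1 liver, and those of Sox18 and Maf held in each. The 21 arrays each held RNA of 1 whole liver, labelled as a biological replicate: 10 of the genotype Gata4-LSEC-KO and 11 of sibling controls labelled wt. Knockout mice came from a cross of the Clec4g-icre driver, in which Cre follows Clec4g regulatory sequence and so acts in sinusoidal endothelial cells of the liver, with mice whose Gata4 gene is floxed (Gata4tm1.1Sad). Other liver cells were not targeted by design. All mice were on the std diet, and the sources used here do not give the alleles of the control siblings, the sex or the age.

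Endothelial cells keep their identity through a small set of DNA-binding proteins. The ETS factors ERG, FLI1 and ETS1 bind enhancers of many endothelial genes, and the SOXF factors SOX7, SOX17 and SOX18 act with them in vessel growth, in arterial fate and, for SOX18, in early lymphatic fate. The vessels between hepatocytes are sinusoids, fenestrated and without an organised basement membrane, and GATA4 is needed to keep them from turning into continuous capillaries; MAF, TFEC and MEIS2 are counted with it among the factors enriched in sinusoidal endothelium. Several of the 9 are also made outside vessels: MAF and TFEC in macrophages, FLI1 and ETS1 in leukocytes.

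Values were log2 RMA signals, for which every array shared 1 distribution with a median of 3.75. Such values have no detection call, and 2 of the 9 factors, Tfec and Sox18, had control means under that median, so their levels can lie close to background. Sample numbers in the descriptions form 2 runs of consecutive values, run 1 with 5 control and 4 knockout livers and run 2 with 6 of each. Run was therefore a term of the fit. A gene passed at a Benjamini-Hochberg adjusted p under 0.05 over all 25428 genes in limma. Gata4 itself had a log2 difference of -0.19 ± 0.10 (SE; adjusted p = 0.26). The sources used here do not say whether its probes lie in the deleted part, so this value does not check the labels. Clec4g, the sinusoidal lectin gene behind the driver, fell by 0.92 ± 0.23 (SE; adjusted p = 0.018, but 0.053 without the run term). The arrays that correlated least with their own genotype and run were control replicate 3 and knockout replicate 6 (mean r = 0.982 and 0.980), and results without both are given where they matter.

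Of the 9 factors, 2 (22.2%) were higher, where 3.28% of all genes were, and 1 (11.1%) was lower, where 4.05% of all genes were; 7.33% of all genes passed in either direction. The median log2 difference of the 9 was 0.03, against -0.01 over all genes. With so few genes, chosen with earlier results of these data known, these shares describe this set and carry no test of their own. Whole liver does not tell fewer cells of a type from less RNA per cell. The genotypes overlapped for each of the 9; over all genes, 0.130% had all 10 knockout livers above the highest or below the lowest control. Without control replicate 3 and knockout replicate 6 the counts were again 2 higher and 1 lower.

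**Figure D1:**
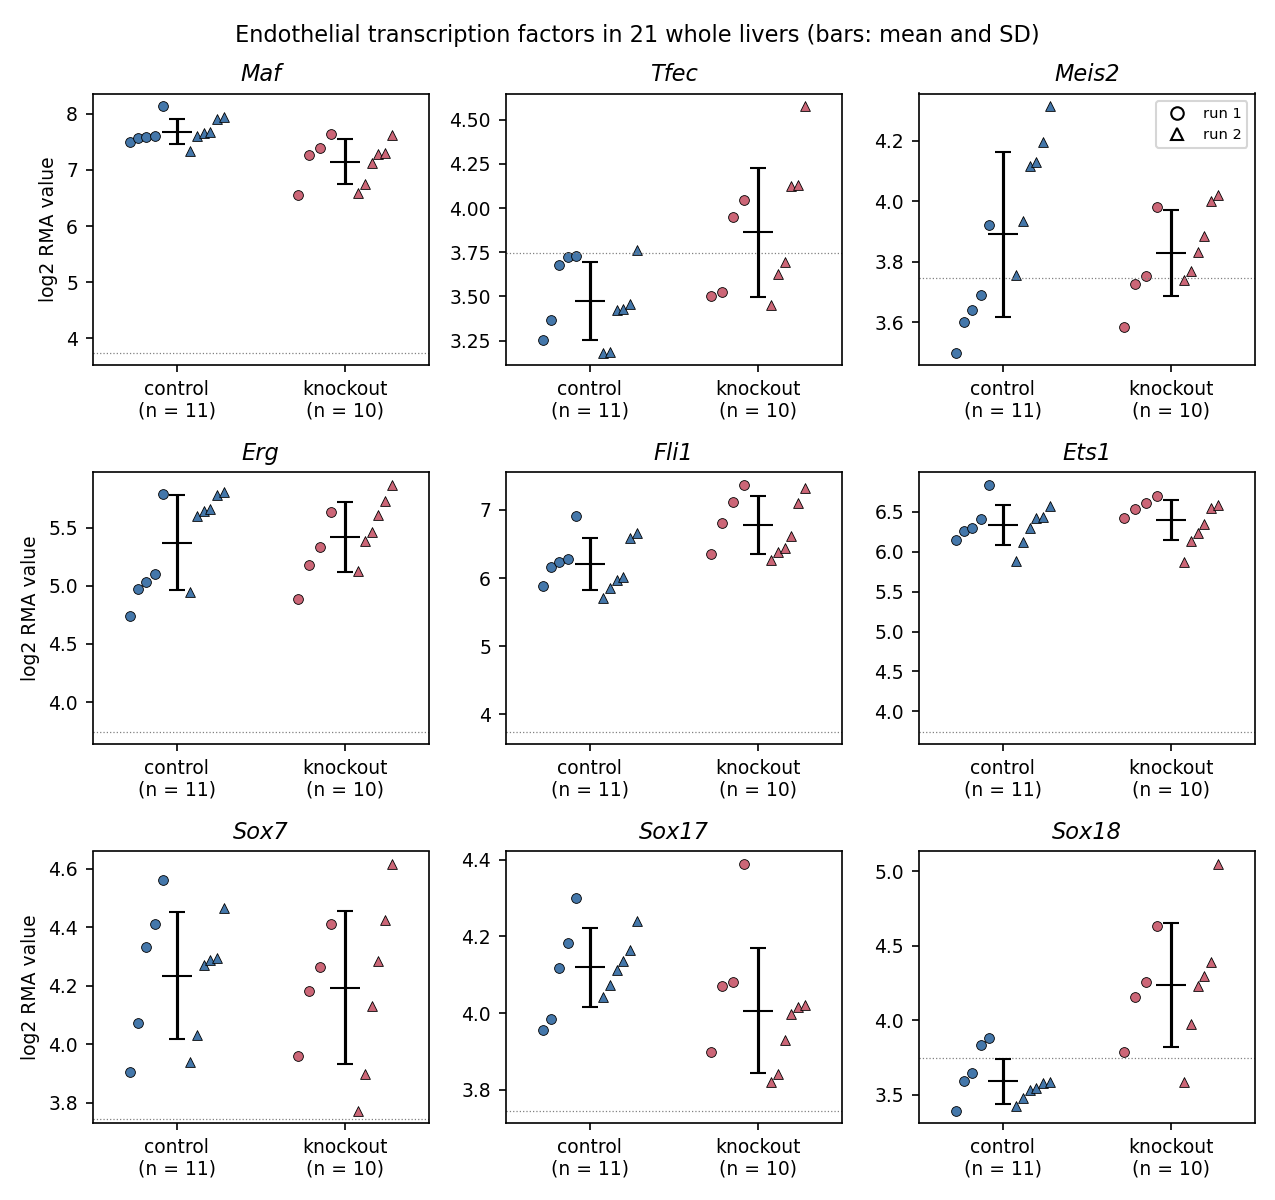
Log2 RMA value (y axis) of each of the 9 factors in the 11 control and 10 knockout livers, 1 point per liver, circles for run 1 and triangles for run 2; horizontal and vertical bars give the mean and SD of a genotype, and the dotted line the array median of 3.75. Sox18 exceeded its highest control value in 8 of 10 knockout livers, and Maf lay below its lowest control value in 7 of 10.

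Maf encodes c-MAF, a leucine zipper factor of sinusoidal endothelium and of resident macrophages. Control livers ran from 7.34 through a median of 7.61 to 8.14, and knockout livers from 6.55 through 7.27 to 7.64. All 10 knockout livers were under the control mean of their run, and 5 of 11 controls lay above every knockout liver. Maf fell by 0.53 ± 0.14 on the log2 scale (SE; adjusted p = 0.021, limma), which makes it 1.44-fold lower. The lowest values, 6.55 in knockout replicate 1 of run 1 and 6.59 in knockout replicate 9 of run 2, came from different runs. Within run 1 the log2 difference was -0.47 ± 0.21 and within run 2 it was -0.58 ± 0.16 (SE). Neither run alone passed (adjusted p = 0.44 and 0.058). The call held without any 1 of the 21 livers, with log2 differences from -0.59 to -0.45 and an adjusted p of at most 0.042.

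Tfec, a helix-loop-helix factor related to MITF, was the near miss. Its lowest, median and highest values were 3.18, 3.43 and 3.77 in controls and 3.45, 3.82 and 4.58 in knockout livers. The highest value belonged to knockout replicate 6, and 5 of 10 knockout livers were above the highest control, although 15 of all 21 livers were under the array median. The log2 difference of 0.39 ± 0.13 (SE) had a 95% confidence interval from 0.13 to 0.65 and did not pass (adjusted p = 0.064). Run 1 gave 0.21 ± 0.15 and run 2 gave 0.53 ± 0.17. It passed without knockout replicate 1 (adjusted p = 0.045) or knockout replicate 7 (adjusted p = 0.046). Without control replicate 3 and knockout replicate 6 it was 0.29 ± 0.11 (adjusted p = 0.12).

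Meis2, a homeodomain factor that pairs with PBX proteins, had no shared direction in the runs. Control values went from 3.50 through 3.92 to 4.32 and knockout values from 3.58 through 3.80 to 4.02, so the knockout range lay inside the control range. By run, controls had a mean of 3.67 ± 0.16 (SD, n = 5) and then 4.07 ± 0.20 (SD, n = 6), while knockout livers had 3.76 ± 0.16 (SD, n = 4) and 3.87 ± 0.12 (SD, n = 6). The log2 difference was -0.08 ± 0.08 (SE; adjusted p = 0.62), and its 95% confidence interval of -0.23 to 0.08 leaves out signal changes as large as those of Maf or Sox18. Meis2 had 7 of 21 livers under the array median, so its level can also lie close to background. The interval therefore describes array signal and does not bound a change in its RNA. The genotype by run term was -0.29 ± 0.14 (SE; unadjusted p = 0.055, adjusted p = 0.50).

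Promoter sequence was at hand for Tfec, Meis2 and Erg, in 1, 1 and 3 windows of 300 bases (250 before and 50 from the start of transcription), from RefSeq on GRCm38.p6. It is shown because the deleted gene encodes a GATA factor and 6 of the 9 factors belong to the ETS or SOX families. Both strands were searched for a GATA motif (GATA after A or T and before A or G), an ETS motif (GGAAG after A or C) and a SOX motif (ACAA before AG or TG). No 2 matches below share a base. Of all 32851 windows in the table, 29.8% held the GATA motif, 46.5% the ETS motif and 28.6% the SOX motif. The Tfec window (chr6:16898392-16898691, minus strand) held 1 GATA, 3 ETS and 1 SOX match, with the GATA match at base -81 from the start and an ETS match at base -71. The window of the Erg start that lies farthest along the gene (chr16:95459299-95459598, minus strand) held 1 of each, at bases -103, -40 and -121. The other Erg windows and the Meis2 window held none. Capitals mark the matches.
Tfec: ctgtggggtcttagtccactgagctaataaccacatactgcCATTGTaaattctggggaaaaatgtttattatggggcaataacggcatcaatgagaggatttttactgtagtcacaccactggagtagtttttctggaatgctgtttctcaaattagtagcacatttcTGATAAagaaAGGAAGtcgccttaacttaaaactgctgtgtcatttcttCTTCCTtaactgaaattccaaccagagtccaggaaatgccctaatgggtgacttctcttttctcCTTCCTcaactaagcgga
Erg: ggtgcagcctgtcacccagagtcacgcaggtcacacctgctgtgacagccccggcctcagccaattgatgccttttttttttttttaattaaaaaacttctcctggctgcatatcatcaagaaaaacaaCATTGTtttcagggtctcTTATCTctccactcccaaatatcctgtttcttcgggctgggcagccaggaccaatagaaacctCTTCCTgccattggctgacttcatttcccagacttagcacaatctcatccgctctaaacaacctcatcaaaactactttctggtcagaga
A match is a description of these letters and says nothing of binding, and no match says only that these words are not in that window.

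Among the ETS factors, Fli1 was higher in knockout livers, and Erg and Ets1 did not pass. Fli1 had lowest, median and highest values of 5.70, 6.16 and 6.91 in controls and of 6.26, 6.71 and 7.37 in knockout livers. Every knockout liver was above the control mean of its run and 7 of 11 controls lay under the lowest knockout liver, but the groups overlapped: control replicate 3, the highest control, exceeded 6 of 10 knockout livers. Fli1 rose by 0.58 ± 0.16 on the log2 scale (SE; adjusted p = 0.034, limma), or 1.5-fold, with 0.62 ± 0.24 in run 1 and 0.56 ± 0.21 in run 2. The call was lost without any 1 of 9 livers (control replicates 4, 7, 8, 9 and 10 and knockout replicates 3, 4, 6 and 10), where the adjusted p reached 0.069 and the log2 difference stayed between 0.51 and 0.57.

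Erg, which endothelial cells need throughout life to hold their junctions, ran from 4.74 through 5.60 to 5.80 in controls and from 4.89 through 5.42 to 5.87 in knockout livers. Its log2 difference was 0.03 ± 0.13 (SE; adjusted p = 0.92), with a 95% confidence interval of -0.24 to 0.30. Mean values by run were 5.13 ± 0.39 (SD, n = 5) and 5.57 ± 0.32 (SD, n = 6) in controls and 5.26 ± 0.31 (SD, n = 4) and 5.53 ± 0.26 (SD, n = 6) in knockout livers. In each run the genotypes thus differed by less than 1 SD. Ets1, shared by vessels and lymphocytes, ran from 5.88 through 6.30 to 6.83 in controls and from 5.87 through 6.48 to 6.69 in knockout livers, a log2 difference of 0.08 ± 0.10 (SE; adjusted p = 0.73; 95% confidence interval -0.13 to 0.28). Its run 2 difference was close to 0 (-0.00016), and its run 1 difference was 0.18 ± 0.13 (SE).

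Within the SOXF group, Sox18 was higher in knockout livers, and Sox7 and Sox17 did not pass. Sox18, a factor of growing blood vessels and of lymphatic specification, ran from 3.39 through 3.58 to 3.88 in controls and from 3.58 through 4.24 to 5.05 in knockout livers. In knockout livers 8 of 10 exceeded the highest control; the exceptions were replicate 6 (3.58) and replicate 1 (3.79). The spread was also wider there, with an SD of 0.41 against 0.15 in controls. Sox18 rose by 0.65 ± 0.13 on the log2 scale (SE; adjusted p = 0.0054, limma), or 1.57-fold. Each of the 10 knockout livers lay above the mean of its run's controls. The rise was 0.54 ± 0.16 in run 1 and 0.73 ± 0.18 in run 2, where it passed on its own (adjusted p = 0.036). Leaving out any 1 liver gave log2 differences from 0.56 to 0.72 and an adjusted p of at most 0.012.

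Sox7 ran from 3.90 through 4.29 to 4.56 in controls and from 3.77 through 4.22 to 4.62 in knockout livers, with a log2 difference of -0.04 ± 0.10 (SE; adjusted p = 0.88; 95% confidence interval -0.25 to 0.18). Sox17, a factor of arterial endothelium, ran from 3.96 through 4.12 to 4.30 in controls and from 3.82 through 4.01 to 4.39 in knockout livers. Its log2 difference of -0.11 ± 0.06 did not pass (SE; adjusted p = 0.30; 95% confidence interval -0.23 to 0.02), although 9 of 10 knockout livers were under the control mean of their run; the exception, knockout replicate 3, was the highest of all 21. In run 1 the Sox17 difference was 0.002 and in run 2 it was -0.19 ± 0.06 (SE; adjusted p = 0.080).

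**Figure D2:**
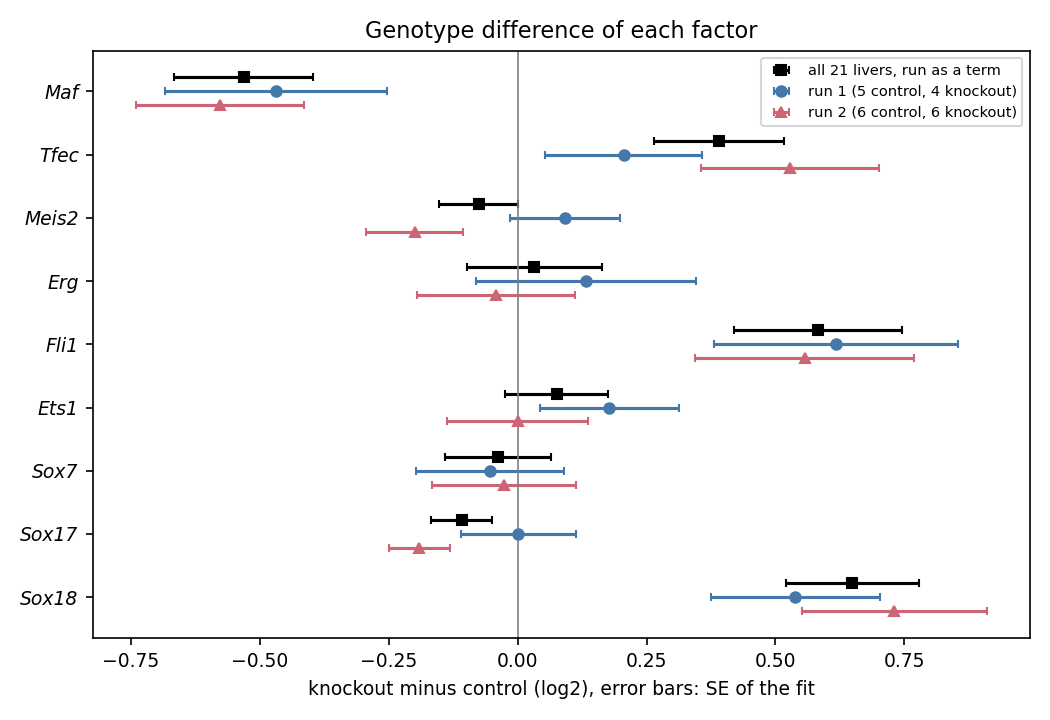
Log2 difference of knockout minus control livers (x axis) for each factor, with SE of the fit, over all 21 livers with run as a term (squares), in run 1 (circles) and in run 2 (triangles). Maf lay below 0 and Sox18, Fli1 and Tfec above 0 in each run, and Meis2, Erg, Ets1 and Sox17 lay on different sides of 0 or at 0 in the runs.

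The genotype by run term, which asks whether a difference changed between the runs, passed for 0 of the 9 factors in limma (also 0 at an unadjusted p under 0.05) and for 8 of all genes (0.0315%).

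Members of a family were compared on the same arrays, by permuting the genotype labels within runs 100000 times (two-sided; 6 pairs, adjusted by Benjamini-Hochberg). The pairs were chosen with the differences above known. The rise of Sox18 exceeded the difference of Sox17 by 0.76 ± 0.14 (SE) and that of Sox7 by 0.69 ± 0.12 (adjusted permutation p = 0.00021 for each). Fli1 exceeded Erg by 0.55 ± 0.17 (adjusted permutation p = 0.0086) and Ets1 by 0.51 ± 0.16 (adjusted permutation p = 0.012). Sox17 and Sox7 differed by -0.07 ± 0.11 and Erg and Ets1 by -0.04 ± 0.14 (adjusted permutation p = 0.63 and 0.77). In this fit of genotype and run, Sox18 and Fli1 thus had larger mean differences in array signal than their relatives. These pairs were chosen after those differences were seen. The control mean of Sox18 (3.59) lay under the array median of 3.75, and those of Sox17 (4.12) and Sox7 (4.23) lay little above it. Signals this low can lie close to background, and probes of different genes need not respond alike. The contrasts and their p-values therefore describe array signal and do not compare changes in RNA between genes. With the monocyte marker mean in the fit, as described below, Fli1 had -0.07 ± 0.16 and Erg -0.16 ± 0.19 (SE), and with the B cell marker mean they had -0.10 ± 0.17 and -0.09 ± 0.21, so the gap between them was smaller in both. With the pan-endothelial mean Fli1 had 0.49 ± 0.17 and Erg -0.06 ± 0.13 (SE). With the T and NK cell mean they had 0.19 ± 0.16 and -0.19 ± 0.15. With the Kupffer cell mean they had 0.32 ± 0.20 and 0.13 ± 0.17. The contrasts themselves were not tested with any of these terms.

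Markers of several cell types differed between the same livers, and their levels are given here as the mean log2 value of each list. The counts are to be read against the 3.28% of all genes that were higher and the 4.05% that were lower. Emcn is in both the pan-endothelial and the continuous list and is counted as higher in each. Of 20 pan-endothelial markers, 2 were higher (Emcn, and Eng with an adjusted p of up to 0.057 without any 1 of 5 livers) and 1 lower (Ptprb), with a median log2 difference of 0.15 and list means of 5.31 to 5.98 in controls and 5.52 to 6.23 in knockout livers. Of 17 sinusoidal markers 9 were lower and 0 higher (median -0.45), and of 17 continuous markers 9 were higher and 0 lower (median 0.37). For the continuous list the genotypes did not overlap, with list means of 4.18 to 4.47 in controls and 4.62 to 5.27 in knockout livers. The lists were chosen with earlier results of these data known, so that split is a description and not a test. Arterial and venous markers had 3 higher and 2 lower of 12. Monocyte and recruited macrophage markers had 5 of 11 higher (median 0.74; list means 4.08 to 5.18 in controls and 4.57 to 5.70 in knockout livers), and Kupffer cell markers had 6 of 16 (median 0.61; 5.93 to 7.52 and 6.89 to 7.80). B cell markers had 5 of 9 higher (median 0.57; 3.94 to 5.26 and 4.78 to 6.30), T and NK cell markers 3 of 15 (median 0.16; 3.63 to 3.93 and 3.63 to 4.05) and stellate cell markers 6 of 13. None of these leukocyte or stellate markers were lower, and 0 of 8 cholangiocyte and 0 of 12 hepatocyte markers passed in limma. Control means under the array median were found for 6 of 9 B cell, 11 of 15 T and NK cell and 4 of 11 monocyte markers. The same held for 6 of 17 continuous, 4 of 12 arterial and venous and 6 of 8 cholangiocyte markers. Each of the other lists had 0 or 1 such marker. Levels of these markers can lie close to background.

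The 3 called factors moved differently when such a list mean entered the fit as a further term. The pan-endothelial mean left Sox18 at 0.54 ± 0.12 (SE; adjusted p = 0.015) and Maf at -0.59 ± 0.14 (adjusted p = 0.023), and Fli1 at 0.49 ± 0.17 (adjusted p = 0.095). With the monocyte mean, chosen like the other leukocyte means after the data were seen, the log2 difference of Fli1 was -0.07 ± 0.16 (SE), with the B cell mean -0.10 ± 0.17, with the T and NK cell mean 0.19 ± 0.16 and with the Kupffer cell mean 0.32 ± 0.20. With the same terms in that order Sox18 had log2 differences of 0.74 ± 0.20, 0.72 ± 0.21, 0.62 ± 0.17 and 0.55 ± 0.17 (SE), none past the threshold. Maf had differences farther from 0 than without them, at -0.83 ± 0.19, -0.70 ± 0.21, -0.77 ± 0.15 and -0.68 ± 0.18. Tfec had 0.25 ± 0.19, 0.15 ± 0.19, 0.29 ± 0.16 and 0.28 ± 0.17. With these leukocyte means the fall of Maf passed beside the T and NK cell mean (adjusted p = 0.028), and no other of these values passed; the adjusted p of Sox18 was between 0.080 and 0.24. Few genes of all passed in these fits: 11 higher and 4 lower with the monocyte mean, 4 and 3 with the B cell mean, 88 and 92 with the T and NK cell mean, and 75 and 43 with the Kupffer cell mean. The list means themselves differed with genotype, so genotype and cell content cannot be told apart in these fits.

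**Figure D3:**
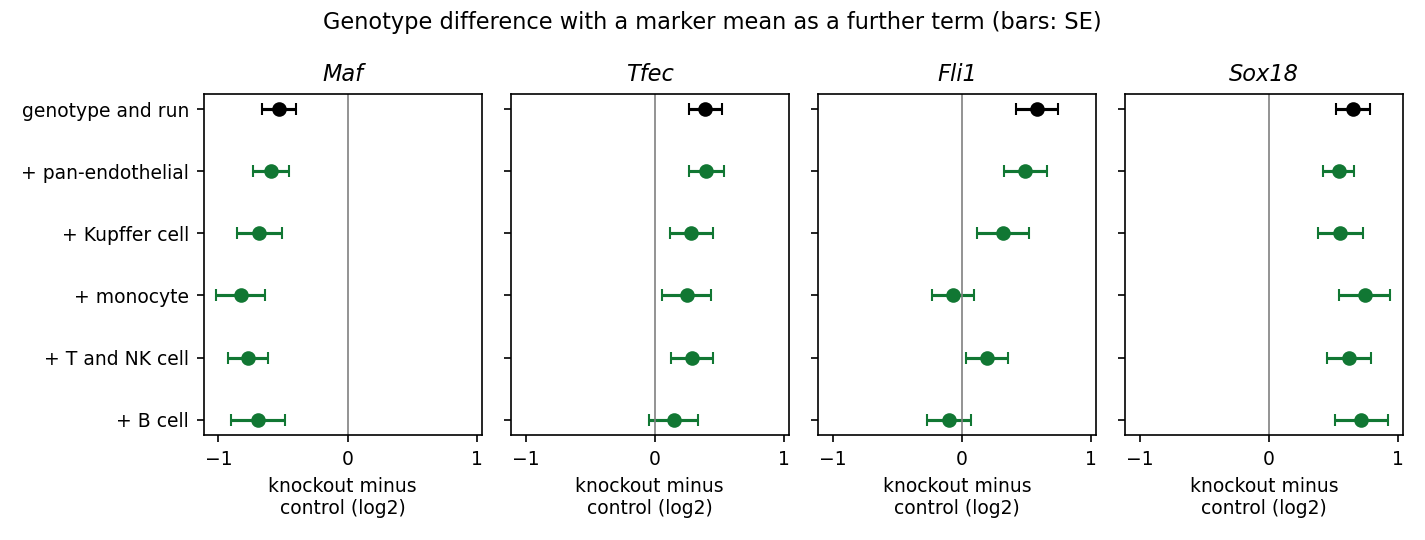
Log2 difference of knockout minus control livers (x axis, with SE) for Maf, Tfec, Fli1 and Sox18, fitted with genotype and run alone (black) and with the mean of 1 marker list as a further term (green). Fli1 had 0.58 with genotype and run alone and 0.49 with the pan-endothelial mean. With the leukocyte means it had 0.32 (Kupffer cell), -0.07 (monocyte), 0.19 (T and NK cell) and -0.10 (B cell). Sox18 lay between 0.54 and 0.74 and Maf between -0.83 and -0.53.

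The relatives of the 9 factors were counted the same way. Of 79 other measured genes in the families and in a list of further endothelial factors, 5 were higher and 1 was lower, with a median log2 difference of -0.01. That share is close to the 7.33% of all genes that passed (3.28% higher and 4.05% lower), against which the counts by family below are also to be read. Of 25 measured ETS genes, Fli1, Ets2 and Elf4 were higher and 0 were lower (median 0.06). Ets2, a widely expressed target of growth factor signalling, rose by 0.51 ± 0.11 (SE; adjusted p = 0.0080), and Elf4, an ETS factor of lymphocytes, by 0.39 ± 0.11 (adjusted p = 0.035; no longer past the threshold in 10 of the 21 fits that left out 1 liver, at up to 0.065). Of 19 SOX genes Sox18 was the one called. Their median log2 difference was -0.07, against -0.01 over all genes, and 9 of 19 had control means under the array median. Sox9, a factor of bile duct cells, had 0.57 ± 0.18 and did not pass (adjusted p = 0.060). Of 6 MAF genes, Maf fell and Mafk, a small MAF protein, rose by 0.35 ± 0.11 (adjusted p = 0.0497), which no longer passed in 16 of the 21 fits that left out 1 liver (highest adjusted p = 0.091). In the MITF and TFE family 0 of 4 and in the MEIS and PBX family 0 of 8 passed; the lowest p there belonged to Tfec and to Pbx3 (-0.18 ± 0.08; adjusted p = 0.18).

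Of 26 further endothelial factors, Foxo1 and Hey1 were higher and Nr2f2 was lower (median 0.09). Nr2f2, also called COUP-TFII, a factor of venous identity, fell by 0.45 ± 0.10 (SE; adjusted p = 0.0081), from 5.70 ± 0.23 (SD, n = 11) to 5.24 ± 0.24 (SD, n = 10). Hey1, a Notch target of arterial endothelium, rose by 0.42 ± 0.10 (adjusted p = 0.019), and Foxo1, which restrains endothelial growth and also serves in hepatocytes, by 0.50 ± 0.10 (adjusted p = 0.0065). These 3 calls held without any 1 liver. The control mean of Hey1, 3.70, lay under the array median, so its level can lie close to background.

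**Figure D4:**
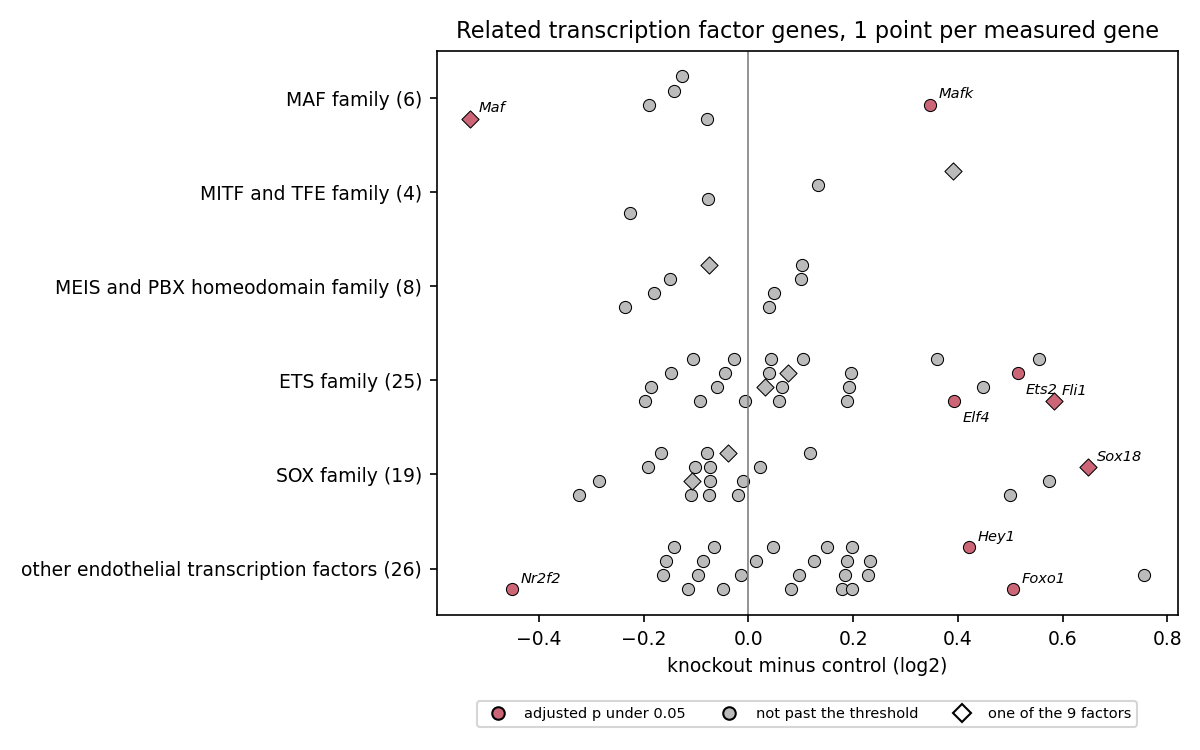
Log2 difference of knockout minus control livers (x axis) for each measured gene of 6 groups of transcription factors (rows, number of genes in brackets; vertical offsets only separate points); red points passed the test and diamonds are the 9 factors. Of the 9 genes labelled, Maf and Nr2f2 lay below 0 and 7 above.

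How the factors varied among livers of 1 genotype and run was taken from values centred on the mean of their genotype and run, over 21 livers. Of 36 pairs of factors, 30 had a Pearson r above 0, with a median of 0.24 and a range of -0.12 to 0.54. None passed after adjustment over the 36 pairs (100000 permutations within genotype and run), and 2 had an unadjusted permutation p under 0.05. Sox7 and Sox18 had r = 0.54 (permutation p = 0.035; adjusted p = 0.43), with Spearman's rho of 0.35 (permutation p = 0.18; adjusted p = 0.52) and r = 0.63 without the 2 livers farthest from the median of Sox7. Meis2 and Sox7 had r = 0.485 (permutation p = 0.027; adjusted p = 0.43), with rho of 0.51 (permutation p = 0.023; adjusted p = 0.42) and r = 0.54 without the 2 livers farthest from the median of Meis2. Sox18 and Fli1, the factors that were both higher, had r = 0.13 (permutation p = 0.62; adjusted p = 0.86) and rho of 0.09 (permutation p = 0.74; adjusted p = 0.91), with r = 0.525 without the 2 livers farthest from the median of Fli1.

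The genes most like each factor were picked from 12260 named genes at or above the array median by that centred r, so the values below are a description of the choice. They were Unkl (0.84) and Syne2 (0.78) for Maf, Hk3 (0.80) and Tfdp1 (0.79) for Tfec, and Ints12 (0.79) and Nkap (0.74) for Meis2. For Erg they were Selp (0.71) and Itpripl1 (0.70), for Fli1 Sp100 (0.88) and Tm6sf1 (0.86), and for Ets1 Aida (0.78) and Rapgef5 (0.76). For the SOXF factors they were Ldb2 (0.80) and Flii (0.76) with Sox7, Mtx1 (0.72) and Anapc7 (0.72) with Sox17, and Mest (0.84) and Dll4 (0.80) with Sox18. Without the 2 livers farthest from the median of the factor, the values of Sox18 were 0.57 and 0.55, while those of Fli1 were 0.83 and 0.80. Those of Tfec were then 0.63 and 0.60 and those of Sox17 0.65 and 0.61. For the remaining factors they ran from 0.65 (Selp with Erg) to 0.80 (Ldb2 with Sox7).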

How the data were processed

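Whole liver RNA of 21 mice was hybridised to Affymetrix arrays, and the deposited values were log2 signals normalised by the authors with RMA, per the submitters' processing notes. The sources used here do not give the array type, the genome build or the RMA version. Sorted values agreed between arrays within 0.0019. No detection call was used, and precision is limited by the number of arrays. Rows were named through the platform annotation: 24705 of 25428 had 1 symbol and 723 had none.

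Genotype was fitted with run as a covariate over all rows (limma 3.58.1, lmFit and eBayes, R 4.3.3), with Benjamini-Hochberg adjustment over all rows. Permutation tests used 100000 draws (Python 3.11.15, scipy 1.17.1). The fit was tested on simulated data with 100 genes changed by 0.5 and 100 by 1 on the log2 scale. It recovered 82% and 96% of them, with 11 false calls. Values were drawn independently for each gene there, and 1864 genes passed in the real data, so these shares need not hold here.

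Named genes were the 9 factors, Gata4 and Clec4g, up to 3 genes per list with the lowest adjusted p past 0.05 (or else the 1 with the lowest p), and the 2 genes most correlated with each factor. Sox9 and the marker genes followed that rule. The members and lists were chosen with earlier results of these data known. The runs were read from consecutive numbers in the sample descriptions; what a run stands for was not given. Same-numbered replicates did not deviate together and were not treated as pairs. Alternatives were other normalisations, a filter on low values, single runs, no run term, the pan-endothelial mean as a covariate and leaving out each liver. The leukocyte covariates, and leaving out the 2 arrays that correlated least, were chosen after seeing the data.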

Additional observations from a re-analysis of the deposited data

Results flagged for a closer look

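In the 10 knockout livers, a single liver stood apart from the rest for 4 of 47 genes examined by Dixon's criterion, which flags about 1 in 20 groups by chance. Sox17 was highest in replicate 3, at 4.39, with the next liver at 4.08. Cd52, a surface protein of lymphocytes and monocytes, was highest in replicate 6, at 7.74, with the next at 6.31. Plxnc1 was lowest in replicate 4, at 5.82 (next 6.40), and Cd3e was lowest in replicate 5, at 3.49 (next 3.90). The control group of 11 was not examined in this way.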

How the results depend on the processing

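The counts of 2 factors higher and 1 lower, and the direction of each of the 9, were kept with no run term, a further quantile normalisation, median centring, an intensity trend and array weights; a filter on the mean over all livers removed Tfec. Sox18, with a control mean under the array median, passed that filter through its knockout values, so its call there is no support. The control means of Tfec and Sox18 lay under the array median, and their signal over background is unknown.

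Run 1 alone called 0 factors higher and 0 lower (2 and 1 of all genes), with Maf at -0.47, Fli1 at 0.62 and Sox18 at 0.54, and turned Meis2 to 0.092 and Sox17 to 0.0017; it holds 9 arrays. Run 2 alone called 1 higher (Sox18) and 0 lower, with 552 of all genes higher, Maf at -0.58 and Fli1 at 0.56, and turned Erg to -0.043 and Ets1 to -0.00016.

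With the pan-endothelial mean, 1 factor was higher (529 of all genes higher, 583 lower), Fli1 was 0.49, and Erg (-0.059) and Ets1 (-0.0077) turned. With the Kupffer cell mean, 0 were higher and 0 lower (75 and 43 of all genes), with Maf at -0.68, Fli1 at 0.32 and Sox18 at 0.55. With the monocyte mean, 0 and 0 (11 and 4), with Maf at -0.83 and Sox18 at 0.74, and Erg (-0.16), Fli1 (-0.068) and Sox7 (0.063) turned. With the T and NK cell mean, 0 were higher (88 and 92), with Fli1 at 0.19 and Sox18 at 0.62, and Erg turned (-0.19). With the B cell mean, 0 and 0 (4 and 3), with Maf at -0.70 and Sox18 at 0.72, and Erg (-0.092), Fli1 (-0.096), Ets1 (-0.048) and Sox7 (0.0041) turned. Without the 2 arrays that correlated least, Erg turned (-0.010). The cause of these changes was not tested.

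Leaving out each liver in turn gave 1 to 3 factors higher and 1 lower throughout, 565 to 981 genes higher and 629 to 1471 lower (629 without control replicate 8 and 661 without control replicate 9). Log2 differences ranged from 0.51 to 0.65 for Fli1, 0.31 to 0.44 for Tfec, -0.033 to 0.094 for Erg and -0.086 to 0.0067 for Sox7, which turned without knockout replicate 9; Erg turned without control replicate 5 or 9 or knockout replicate 3 or 6.

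Replicate numbers did not pair the livers: same-numbered deviations correlated at -0.05 to 0.17, 2 of 10 over 0.1, and 1 of 10 knockout livers correlated best with its own number. With the replicate block, 2 factors were higher and 1 lower, with Maf at -0.61, Fli1 at 0.68 and Sox18 at 0.70, and 602 of all genes were lower. It left 8 residual degrees of freedom.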
